A study of Ovis aries with 9 samples.

Results

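Fragments of 28S ribosomal RNA were examined in small RNA libraries from the sperm of F1 rams (Ovis aries). A sequence was taken as a 28S fragment when its deposited annotation held the term 28S-rRNA and neither an ovine miRNA name nor a tRNA term. This gave 58530 distinct sequences of 3309646 in the 3 libraries together, 30203, 28568 and 34558 in CON, OVER and RES. The 28S term was the sole term of every one of these sequences. In all, 11212 of them were read in all 3 libraries and 34943 in 1 library only, yet those found in all 3 held 86.3% of the 28S reads of CON, 86.6% of OVER and 89.6% of RES.

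The series compared sperm of rams from 3 feeding groups, and its title ties the feeding to the mother's nutrition in gestation. CON is labelled standard feeding, OVER over feeding and RES restricted feeding. All rams are labelled wild type, and no age was taken from the sources. Semen was the source, and the cells were treated with a detergent that lyses somatic cells before RNA was extracted, after which RNA of 15 to 50 nt was selected for the libraries. The 3 tables deposited for each group held the same sequences and the same read counts, so each group is 1 library here, with no replicate spread and no test between groups. All intervals cover counting error only.

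28S rRNA is the long RNA of the large ribosomal subunit and carries the centre that joins amino acids into protein. It is cut, with 18S and 5.8S rRNA, from a single precursor transcribed from many gene copies in the nucleolus. Late spermatids discard most of their cytoplasm and ribosomes, and short fragments of rRNA are an abundant part of the small RNA that ripe sperm keep.

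The fragments were grouped into families so that reads overlapping the same leading sequence could be followed together. Each sequence joined the first family with whose most abundant (leading) sequence it shared 15 nt, which gave 4082 families. Reads of a place that share less than this form families of their own, so families can overlap on the RNA. The rule also limits which starts and ends a family can hold, most so for the shortest leading sequences. They are numbered by their mean level over the 3 libraries in RPM, the reads per 1000000 reads of the library. The 10 leading families held 7345 of the 58530 sequences and 43.5%, 35.3% and 53.8% of the 28S reads in CON, OVER and RES. Their sequences are shown because most of the differences described here are between their levels, starts and ends. Capitals mark the leading sequence, and lower case the neighbouring bases, up to 25 on each side, as joined from overlapping 28S reads of these libraries. Each 18 nt of a printed stretch was held by at least 11 reads in family 8, the thinnest, and by at least 242 in families 1 and 5. The leading sequences of families 2, 3 and 7 lay in no joined stretch of at least 60 nt, the shortest used here, so each stands alone.
Family 1: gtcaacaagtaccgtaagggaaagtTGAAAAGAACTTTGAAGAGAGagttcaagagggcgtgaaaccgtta
Family 2: CTCCGGGCGGGCGGCGGGCGGCGGCGG
Family 3: GGGGTCGCGTCTCGGGGAACCGC
Family 4: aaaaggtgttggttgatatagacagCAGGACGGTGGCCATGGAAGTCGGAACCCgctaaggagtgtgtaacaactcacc
Family 5: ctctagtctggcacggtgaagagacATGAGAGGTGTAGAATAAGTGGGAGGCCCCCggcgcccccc
Family 6: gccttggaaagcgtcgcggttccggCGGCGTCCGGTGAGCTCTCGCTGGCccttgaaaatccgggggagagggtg
Family 7: GGTCGCGCCGTCGGGC
Family 8: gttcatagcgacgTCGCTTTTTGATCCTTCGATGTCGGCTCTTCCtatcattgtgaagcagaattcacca
Family 9: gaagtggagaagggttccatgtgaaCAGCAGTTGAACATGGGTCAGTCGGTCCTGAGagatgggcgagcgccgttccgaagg
Family 10: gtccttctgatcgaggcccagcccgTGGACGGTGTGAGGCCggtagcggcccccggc

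The leading sequences of 8 of the 10 families are flagged in the deposited tables as matching the genome, and those of families 6 and 8 are not. Over all 28S reads, 31.8%, 16.6% and 21.7% in CON, OVER and RES lacked a genome match. Family 2 is the most GC-rich, with 96.3% G or C in its leading sequence, while family 1 is the poorest, with 33.3%. The joined stretches of at least 60 nt numbered 19, covered 3463 bases with the longest at 460 nt, and held 62.8%, 66.9% and 67.2% of the 28S reads of CON, OVER and RES whole. Positions along the ovine 28S gene were not analysed here.

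In level, 28S fragments stood at 29876 RPM in CON (95% interval 29769 to 29983), 36220 RPM in OVER (36091 to 36350) and 41335 RPM in RES (41225 to 41445). OVER was thus 1.21-fold and RES 1.38-fold above CON, and RES 1.14-fold above OVER. Over these libraries 18S rRNA, the RNA of the small subunit, moved less, with 20502, 20605 and 19226 RPM in CON, OVER and RES. Mitochondrial rRNA, transcribed from the mitochondrial genome, stood at 18526, 16545 and 43203 RPM in the same order, so that RES was 2.33-fold above CON. The 28S and 18S fragments were therefore not shifted by a common factor. The counting intervals of the 28S levels do not overlap, but no replicate spread stands behind these folds. In bulk RNA, fewer cells of a type and less RNA per cell cannot be told apart.

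Length separated OVER from the other libraries. The 28S reads averaged 26.5, 20.6 and 25.1 nt in CON, OVER and RES, and their commonest lengths were 24, 16 and 21 nt. The 28S reads of 15 to 20 nt were 14.1% of all 28S reads in CON (95% interval 14.0% to 14.2%), 53.7% in OVER (53.5% to 53.9%) and 19.6% in RES (19.5% to 19.7%), by exact Clopper-Pearson intervals. At the other end, reads of 35 to 42 nt made up 10.4%, 0.611% and 7.41%. OVER was the shortest library in 18S and mitochondrial rRNA too, where its share of 15 to 20 nt was 40.3% for 18S and 40.5% for mitochondrial rRNA, against 8.02% and 9.33% in CON. Over all reads of any annotation that share was 5.98%, 29.6% and 10.3% in CON, OVER and RES.

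**Figure D1:**
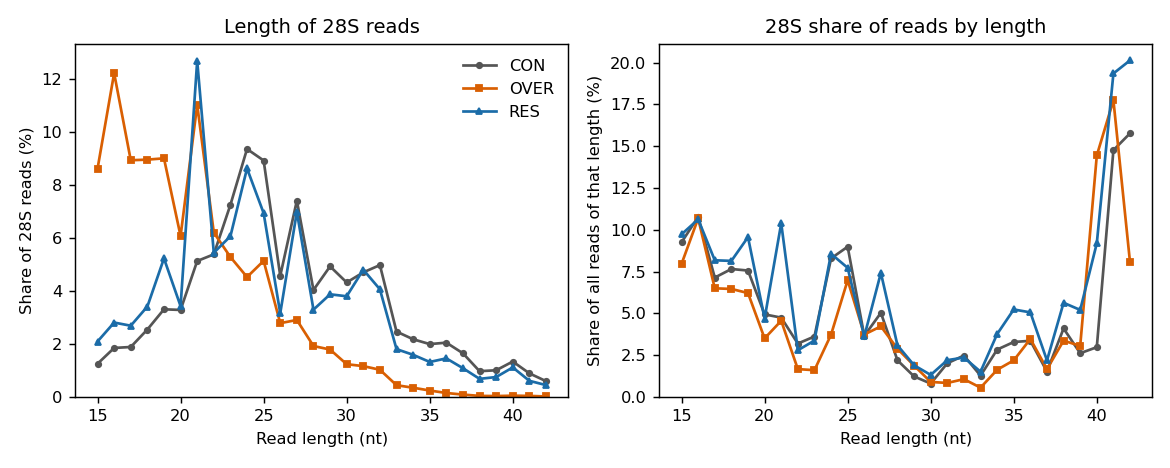
The left panel plots the share of 28S reads (percent) at each read length (nt) and the right panel the 28S share of all reads of that length (percent), 1 line per library. OVER peaks at 16 nt with 12.2% of its 28S reads, and both OVER and RES peak at 21 nt, with 11.01% and 12.7% against 5.12% in CON.

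Levels were also set side by side by length range. Reads of 15 to 20 nt stood at 4205 RPM in CON, at 19458 RPM in OVER and at 8104 RPM in RES. Reads of 21 to 27 nt stood at 14324, 13687 and 20593 RPM, and those of 28 to 34 nt at 8229, 2854 and 9576 RPM. Those of 35 to 42 nt stood at 3118, 221 and 3063 RPM. RES was above CON in the first 3 of these ranges, whereas OVER was above it in the first only. Within the second range OVER was still above CON at 21 nt, with 3989 against 1530 RPM, and at 22 nt, with 2242 against 1605 RPM, and below it at 24 nt, with 1636 against 2792 RPM.

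Among all reads of a given length range, 28S took its smallest share in OVER and its largest in RES in all 4 ranges. For 15 to 20 nt these shares were 7.04%, 6.58% and 7.84% in CON, OVER and RES. For 21 to 27 nt they were 4.99%, 2.94% and 5.74%. Had the CON library kept its own 28S share at each length but had the read lengths of OVER, 28S would have stood at 47642 RPM. The observed 36220 RPM in OVER is 0.760 of that, so the direction of OVER against CON turns once lengths are matched. With reads of 21 to 42 nt only, taken here and below relative to all reads of those lengths, the fold of OVER over CON was 0.872. Given the lengths of RES, CON would have stood at 34680 RPM, and the observed RES level was 1.19-fold above it, in the same direction as without matching.

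The 28S reads were concentrated most in RES. The sequences that together held 50% of the 28S reads numbered 317, 418 and 137 in CON, OVER and RES. The single most abundant sequence held 3.75%, 4.30% and 7.75%, and the 10 most abundant of each library 18.4%, 14.4% and 26.7%. Thinning OVER and RES to the 28S read total of CON left the numbers at 418 and 136. For 18S rRNA the order was another, with 26, 190 and 99 sequences in CON, OVER and RES.

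**Figure D2:**
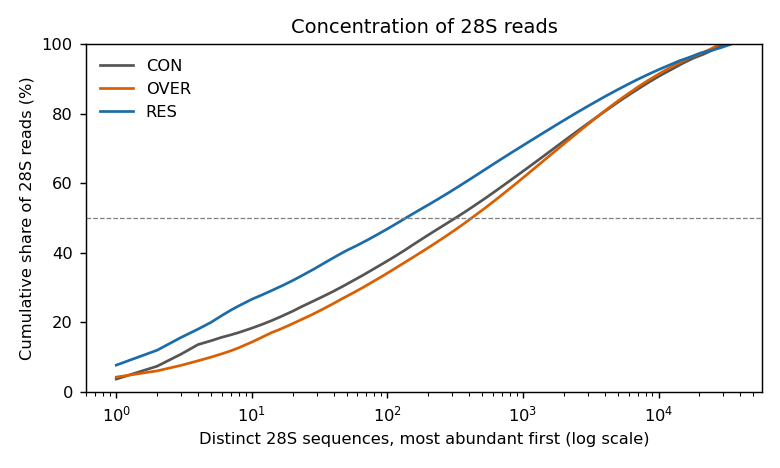
Cumulative share of 28S reads (percent) against the number of distinct 28S sequences, most abundant first (log scale), 1 line per library, with a dashed line at 50%. RES crosses the dashed line at 137 sequences, CON at 317 and OVER at 418.

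The base composition moved with these shifts. G and C made up 69.9%, 66.3% and 66.4% of the bases of 28S reads in CON, OVER and RES. C was the commonest first base, at 47.7%, 39.7% and 41.1%. Reads beginning with T, the first base of family 1, went from 13.6% in CON to 20.6% in OVER and 23.5% in RES.

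Of the 10 leading families, family 1 showed the widest range over the 3 libraries. It stood at 667 RPM in CON (95% interval 651 to 684), 2703 RPM in OVER (2667 to 2738) and 5795 RPM in RES (5754 to 5836), which makes RES 8.68-fold and OVER 4.05-fold higher than CON. It was the highest family in RES, whereas in CON only family 10 was lower among the 10. It alone made up 44.7% of the RES excess of 28S over CON and 32.1% of the OVER excess. Without it, 28S stood at 29208 RPM in CON, at 33517 RPM in OVER and at 35540 RPM in RES, so the order of the libraries did not change.

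Within the starts that the sharing of 15 nt allows, most reads of family 1 began at the same base. In CON 77.8%, in OVER 89.3% and in RES 91.5% of them began at base 1 of the leading sequence. Their ends differed between libraries, and the end at base 21 took 33.6%, 66.6% and 62.0% in CON, OVER and RES. In CON, ends at bases 24 and 25 took a further 15.0% and 15.2%, against 4.75% and 4.54% in OVER.

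The leading 21-nt sequence of family 1 was also the 28S sequence with the highest mean level. It stood at 186 RPM in CON, at 1559 RPM in OVER and at 3204 RPM in RES, a 17.2-fold difference between RES and CON and 8.39-fold between OVER and CON. The 21-nt peak of the length profile rested on it: family 1 held 13.5%, 42.1% and 65.8% of the 21-nt 28S reads in CON, OVER and RES. Without family 1, 21-nt reads made up 4.53%, 6.89% and 5.04% of the 28S reads, and no peak of that size was left in RES. The form that ends at base 19 stood at 29.8, 475 and 645 RPM, so that it was 15.9-fold higher in OVER and 21.6-fold higher in RES than in CON.

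A single-base form accompanied the leading sequence of family 1. Counting from 1 at its 5′ end, with the leading sequence's base first, the form G17A stood at 7.61 RPM in CON, at 87.0 RPM in OVER and at 185 RPM in RES. That is 4.09%, 5.58% and 5.78% of the leading sequence. The deposited tables flag it as matching the genome. Of the 63 possible single-base forms 55 were read, and none of the others passed 0.377% of the leading sequence in any library. Whether G17A comes from another gene copy was not tested.

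**Figure D3:**
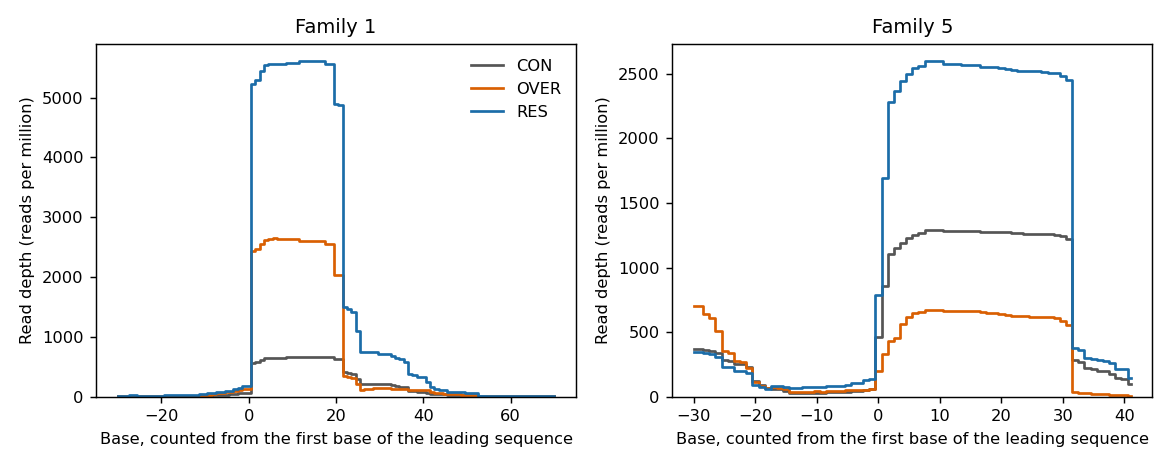
Read depth (RPM) along the joined stretches of family 1 (left) and family 5 (right), with bases counted from the first base of the leading sequence, 1 line per library. In family 1 the depth rises at base 1, reaches 669, 2645 and 5614 RPM in CON, OVER and RES and drops after base 21, whereas in family 5 it rises over several bases and drops after base 31; the depth at the left edge of the right panel comes from reads that lie further 5′ on the same stretch.

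Families 2, 4 and 5 were lowest in OVER and highest in RES. Family 2 stood at 3113 RPM in CON, at 969 RPM in OVER and at 4434 RPM in RES, family 4 at 1902, 764 and 2883, and family 5 at 1373, 735 and 2737. In OVER this was 3.21-fold below CON for family 2 and 2.49-fold below for family 4, while family 5 was 1.87-fold below CON and 3.72-fold below RES. Joined by 18 nt, family 4 went from a log2 ratio of OVER over CON of -1.32 to -2.12. RES was above CON by 1.42-fold, 1.52-fold and 1.99-fold. The leading family of CON was therefore family 2, that of OVER family 3 and that of RES family 1.

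Families 2 and 5 were fixed at opposite ends. Reads of family 2 began at base 1 in 87.0%, 82.3% and 86.3% of cases in CON, OVER and RES. Their ends fell mainly at bases 24 and 27, which took 41.9% and 38.3% in CON, so the reads differed in steps of the GC-rich repeat seen in the printed sequence. Reads of family 5 instead shared their last base, base 31, in 73.3%, 77.6% and 80.9%. Their starts were spread, with 31.6% of them in CON 1 base before base 1 and 30.8% at base 1. Family 9 had the same form, with its last base at base 32 in 84.7%, 61.3% and 83.1% of reads. Family 4 was fixed at neither end, and in CON its commonest start held 48.9% and its commonest end 15.9%.

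Families 3 and 10 were highest in OVER. Family 3 stood at 1672 RPM in CON, at 3228 RPM in OVER and at 2212 RPM in RES. Its log2 ratio of OVER over CON was 0.95, and 0.34 with reads of 21 to 42 nt relative to all reads of those lengths. Its reads shifted start between libraries: 68.3% began at base 1 in CON, 53.5% in RES and 30.9% in OVER, where 22.2% began at base 3 and 20.2% at base 8. Its whole 23-nt leading sequence was lowest in OVER and level in the other libraries, with 820, 316 and 816 RPM in CON, OVER and RES. The 16-nt form from base 8 to base 23 stood at 42.9, 572 and 114 RPM, 13.3-fold higher in OVER than in CON. A sum over a family and a count of 1 sequence thus gave opposite orders of OVER and CON.

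Family 10 stood at 256 RPM in CON, at 1457 RPM in OVER and at 310 RPM in RES, 5.69-fold higher in OVER than in CON. That is a log2 ratio of 2.51, which was 1.29 with reads of 21 to 42 nt. Joining by 18 nt left only the 16-nt leading sequence, with a log2 ratio of 4.71. In OVER 59.2% of its reads ended at base 16 and 79.5% were of 15 to 20 nt. In CON the commonest end was base 27, with 35.4%. Its leading 16-nt sequence stood at 14.6, 382 and 21.3 RPM. Reads of family 10 without a genome match made up 83.2%, 43.9% and 76.6% in CON, OVER and RES.

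The remaining leading families ranged less. Family 6 stood at 1586, 1121 and 1380 RPM in CON, OVER and RES, and 78.5%, 64.7% and 77.7% of its reads ended at base 25. Family 7 stood at 695, 808 and 1080 RPM, family 8 at 920, 492 and 659 RPM, and family 9 at 800, 502 and 743 RPM. None of these 4 was 2-fold apart between any 2 libraries as grouped here, but 3 of them were under an alternative. For OVER over CON, family 8 had a log2 ratio of -0.90, which went to -1.66 when joined by 18 nt, -1.37 with 21 to 42 nt and -1.18 when scaled to the 28S reads. Family 9 went from -0.67 to -1.19 and -1.10 under the first 2 of these. Family 7 in OVER over RES went from -0.42 to -1.54 with 21 to 42 nt. Its leading sequence has 16 nt, so joining by 18 nt left that sequence alone, with a log2 ratio of 1.36. Of the 10 families, 6 were lowest in OVER and 4 in CON, while 5 were highest in RES, 3 in CON and 2 in OVER.

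**Figure D4:**
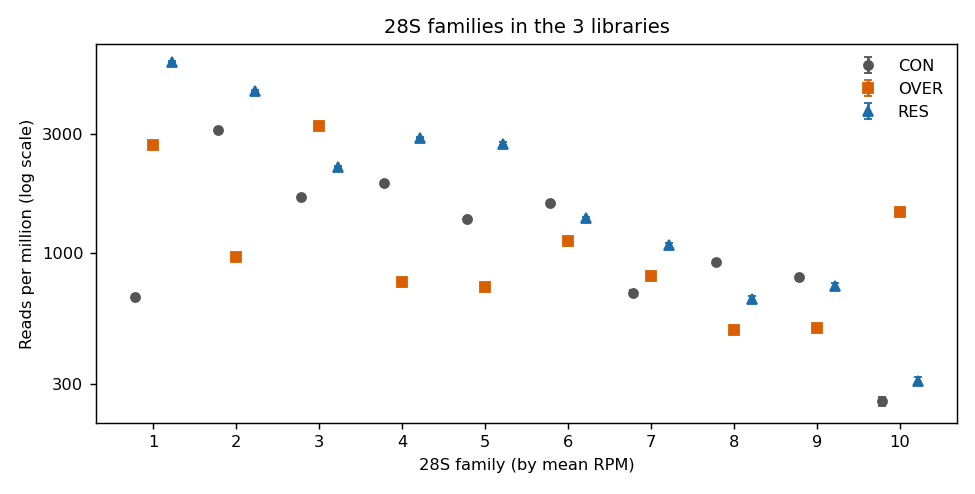
Level in RPM (log scale) of the 10 leading 28S families in each library, with exact Poisson 95% intervals of the counts, most of them smaller than the symbols. Family 1 spans 667 RPM in CON to 5795 in RES, families 2, 4 and 5 are lowest in OVER, and families 3 and 10 are highest there.

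Short reads were not a property of a few families. Within each of the 10, the share of reads of 15 to 20 nt was highest in OVER and lowest in CON. It ran from 10.05% in family 5 to 79.5% in family 10 in OVER, from 0.657% to 36.3% in CON, and from 0.897% to 43.9% in RES. Among the families with at least 1000 reads in the 2 libraries compared, 99 of 99 had a shorter mean length in OVER than in CON and 116 of 116 a shorter one in OVER than in RES. For RES against CON it was 98 of 106.

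**Figure D5:**
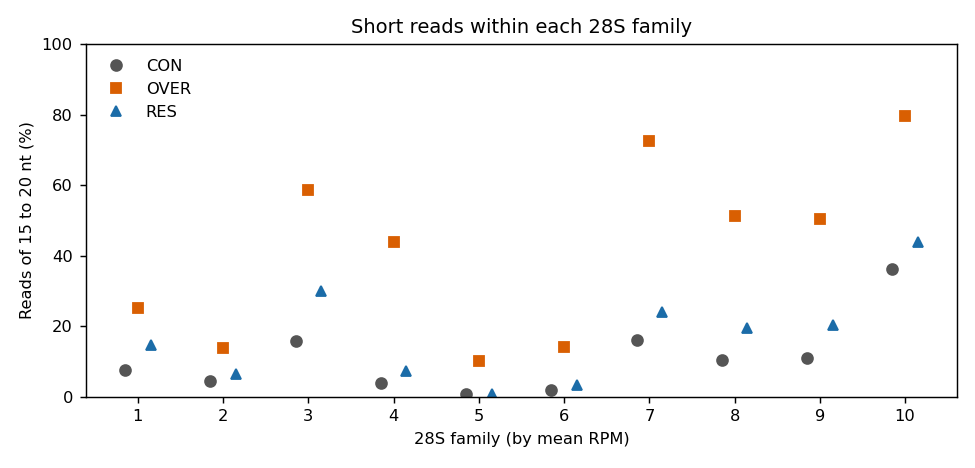
Share of reads of 15 to 20 nt (percent) within each of the 10 leading 28S families, 1 symbol per library. OVER is the highest symbol and CON the lowest in all 10 families, from 10.05% against 0.657% in family 5 to 79.5% against 36.3% in family 10.

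At the level of whole families of at least 1000 reads, 22 of 99 were higher by 2-fold or more in OVER than in CON, and 8 were lower by as much. For RES against CON, 8 of 106 were higher and 2 lower. For OVER against RES, 15 of 116 were higher and 10 lower. Families can overlap on the RNA, so these are not counts of separate places. RNAs other than 28S were not grouped into families, so no share over all families stands beside these counts. Over all single sequences with at least 100 reads, 34.5% were higher and 34.7% lower in OVER than in CON, 26.8% and 13.9% in RES than in CON, and 25.4% and 37.8% in OVER than in RES. Outside the 10 leading families, family 44 stood at 49.0 RPM in CON, at 154 RPM in OVER and at 220 RPM in RES. Family 17 was among those lowest in OVER, with 577, 174 and 680 RPM in CON, OVER and RES.

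Single sequences were compared where they had at least 100 reads in the 2 libraries together, a minimum that few of the 58530 met. For OVER and CON, 755 did, and they held 55.3% and 57.0% of the 28S reads. Of these, 321 (42.5%) were at least 2-fold higher in OVER, against 34.5% of all sequences, and 199 (26.4%) at least 2-fold lower, against 34.7% of all. For RES against CON, 259 of 939 (27.6%) were higher, against 26.8% of all, and 52 (5.54%) were lower, against 13.9%. For OVER against RES, 276 of 985 (28.02%) were higher, against 25.4%, and 338 (34.3%) were lower, against 37.8%. The balance of OVER against RES turned with the scaling: 354 were higher and 258 lower with edgeR TMM factors, and 374 and 241 with DESeq2 size factors. For RES against CON these factors gave 193 and 80, and 192 and 82, while scaling to the 28S reads gave 139 and 138. With 21 to 42 nt only, OVER against CON turned to 101 higher and 162 lower. The share of 28S sequences higher in RES than in CON thus lay near that of all sequences. The median log2 ratio of 28S sequences was 0.42 for OVER over CON, 0.37 for RES over CON and -0.15 for OVER over RES, beside -0.08, 0.20 and -0.39 over all sequences compared.

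Sorted by length, 28S sequences had medians of OVER over CON near those of all sequences of the same lengths, except at 21 to 27 nt. Of 300 28S sequences of 15 to 20 nt, 242 had a level in OVER of 2-fold that in CON or more and 4 were lower by as much, where 80.5% of all sequences of that length were higher and 1.60% lower. Their median log2 ratio was 2.66 beside 2.56 over all. Of 44 of 35 to 42 nt, none was higher and 42 were lower, against 1.09% and 91.3% of all, with a median of -4.56 beside -4.42. Between these, at 21 to 27 nt, 73 of 271 were higher and 61 lower, against 35.8% and 20.2% of all, with a median of 0.07 beside 0.41. At 28 to 34 nt, 6 of 140 were higher and 92 lower, against 7.06% and 63.9% of all, with a median of -1.55 beside -1.49.

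The sequences farthest apart between OVER and CON were among the shortest and the longest. The 5 that were highest in OVER relative to CON were of 15 to 16 nt, from 4 families, with 23.2 to 139.6 RPM in OVER against 0.300 to 3.31 RPM in CON. One of them, GCGCGGGACATGTGGC of family 22, stood at 2.50 RPM in CON, at 115 RPM in OVER and at 4.33 RPM in RES, 45.7-fold higher in OVER than in CON. The 5 that were lowest were of 40 to 42 nt, 4 of them from family 4 and 1 from family 5, and had 1 to 13 reads each in OVER. The 40-nt sequence of family 4 from base 1 to base 40 stood at 152 RPM in CON, at 1.57 RPM in OVER and at 168 RPM in RES, a log2 ratio of OVER over CON of -6.60. Reads of family 4 this long were thus near the lowest level that could be read in OVER, where 3 reads are 0.362 RPM.

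For RES over CON, the 5 highest were all forms of family 1, of 17 to 21 nt, with 20.6 to 3204 RPM in RES against 1.502 to 186 RPM in CON. The 5 lowest came from 5 families and were at most 2.59-fold lower in RES, at 7.22 to 31.5 RPM against 18.2 to 71.9 RPM in CON. For OVER over RES, the 5 highest included the leading sequence of family 10, 17.95-fold higher in OVER, and the 5 lowest were again of families 4 and 5 at 40 to 42 nt.

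Landmarks of the RNA were looked for on both strands by motifs of 9 bases. The last bases of 28S, AGGGTTTGT, were held by 529, 431 and 184 reads in CON, OVER and RES, and every one of these reads ended with them. In RPM this was 53.0, 52.0 and 14.0, and the motif stood in 0.0828%, 0.0560% and 0.0463% of the 28S sequences. The sarcin-ricin loop, where elongation factors touch the ribosome, was first searched as CGAGAGGAC, which no 28S read held. The form CGAGAGGAA, added after the data were seen, was in 106, 167 and 146 reads, in 0.192%, 0.203% and 0.174% of the 28S sequences. None of the reverse complements of these 3 motifs was held by a 28S read.

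The first bases of mature 28S, CGCGACCTC, were held by no read with the 28S term, and their reverse complement by 3, 0 and 4 such reads in CON, OVER and RES. The overlapping form CGACCTCAG, added after the data were seen, was in 435, 300 and 582 reads of the 28S term, in 0.113%, 0.0805% and 0.0926% of the 28S sequences, and every one of these reads began with it. Reads outside the rule that held the first 15 nt of the annotated 28S numbered 125927, 95696 and 148800 in CON, OVER and RES. Of these, 124398, 94916 and 147093 began 2 bases earlier and carried no annotation in the deposited tables. Except where a wider set is named, only reads that met both conditions are described below. Their most abundant forms are shown because these reads, summed, outnumber every 28S family. Capitals mark the 2 added bases.
22 nt: CGcgacctcagatcagacgtgg
20 nt: CGcgacctcagatcagacgt
37 nt: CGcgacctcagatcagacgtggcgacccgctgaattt

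These unannotated reads stood at 12460 RPM in CON, at 11452 RPM in OVER and at 11177 RPM in RES, above every 28S family in each library. They number 41.7%, 31.6% and 27.04% of the 28S reads, and 99.8% to 99.9% of them match the genome. Added to the 28S reads they gave 42336, 47672 and 52512 RPM, which kept the order of the libraries. The folds over CON were then 1.13 for OVER and 1.24 for RES. A wider set, all reads outside the rule that share 18 nt with 28S sequences, stood at 20444, 13549 and 19943 RPM in CON, OVER and RES. Within it, reads termed rRNA stood at 6881, 2625 and 8890 RPM. Added instead, the wider set would put OVER below CON and leave RES highest. Whether the wider set comes from 28S was not tested.

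The lengths of the unannotated reads moved as those of 28S did. The 22-nt sequence stood at 3058, 4686 and 3970 RPM in CON, OVER and RES, the 20-nt sequence at 863, 4222 and 774 RPM, and the 37-nt sequence at 2682, 23.3 and 1673 RPM. These reads were chosen by their start, so a shared start is no result, and the 37-nt form was lowest in OVER. Reads of 17 to 20 nt made up 12.9%, 49.1% and 18.3% of the unannotated reads. By the way they were chosen none can be below 17 nt, whereas the 28S shares include 15 and 16 nt.

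Markers of other cells were set beside these values. The epithelial miRNAs miR-200a, miR-200b and miR-200c, 3 of 3 found under an ovine name, summed to 464 RPM in CON, to 1094 RPM in OVER and to 134 RPM in RES. Their order, with OVER highest and RES lowest, is not that of the 28S level, in which RES is highest. OVER was also highest in the share of 28S reads of 15 to 20 nt, and the part of epithelial RNA in that result was not tested. Of the sperm markers, miR-191 and miR-22 were found, summing to 4802, 9139 and 8392 RPM, and miR-34c and miR-449a were not found by name. The blood cell miRNAs miR-223, miR-451 and miR-486 were not found by name either, so blood cells could not be judged from them.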

How the data were processed

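Members and lists were chosen with earlier results of these data known. The 9 deposited tables list each distinct sequence with its length in nt, its count of reads, a genome flag and annotation terms, per the file headers; the deposited counts are whole numbers with no normalization by the authors. edgeR is named in the submitters' processing notes, with no version. An aligner, annotation tool or build is not given in the sources used here. In each group the 3 tables had the same sequences, counts and flags, and annotation terms differed in 0 to 3 sequences, none of them 28S, so each group was counted once. The planned tests could then not be made, and values are set side by side.

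Library totals were 9983895, 8287937 and 13160116 reads in CON, OVER and RES, with 57.6%, 62.9% and 67.6% of reads annotated, and read lengths ran from 15 to 42 nt. RPM is the reads per 1000000 of these totals. Intervals are exact Poisson (RPM), Clopper-Pearson (shares) or from the exact binomial interval of 2 counts (ratios), at 95%. PCR reads are not independent molecules. A count of 0 was set to 3 reads. Families and sequences were named by rule: the 10 families and 10 sequences of highest mean RPM, and in each pair of libraries the 5 highest and 5 lowest ratios among sequences with at least 100 reads in both together, a mean of at least 10 RPM and a genome match. Families 17 and 44 were named after their values were seen, and family 22 through a named sequence. Stretches were joined by 18-nt overlaps of sequences with at least 10 reads. Alternatives used edgeR 4.0.16 TMM and DESeq2 1.42.0 size factors in R 4.3.3; the rest used Python 3.11.15, pandas 2.3.3 and scipy 1.17.1. The ratio and family steps were tested on simulated data. No genome was used here.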

Additional observations from a re-analysis of the deposited data

Results flagged for a closer look

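Reads annotated as antisense to 28S lie outside the rule and were few. They stood at 9.82 RPM in CON (98 reads, exact Poisson 95% interval 7.97 to 11.96), 22.1 RPM in OVER (183 reads, 19.0 to 25.5) and 14.7 RPM in RES (193 reads, 12.7 to 16.9). Both OVER and RES lay above the control library beyond counting error, with no replicate spread to set them against.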

How the results depend on the processing

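No paired analysis was possible because the 3 tables of each group hold the same counts, which also means that no replicate could be left out in turn. RES kept the highest and CON the lowest 28S level, in the order CON, OVER, RES, with annotated reads as the denominator (51873, 57606 and 61176 RPM), with genome-matching sequences (26175, 36913 and 37608) and with sequences of at least 10 reads (29756, 38298 and 42469). The folds of OVER and RES over CON and of OVER over RES were then 1.11, 1.18 and 0.942, then 1.41, 1.44 and 0.982, then 1.29, 1.43 and 0.902. With reads of 21 to 42 nt the levels were 27303, 23800 and 37061 RPM and the folds 0.872, 1.36 and 0.642, so OVER against CON reversed. Chosen after seeing the data, leaving out family 1 gave 29208, 33517 and 35540 RPM and folds of 1.15, 1.22 and 0.943, and adding the unannotated reads from 2 bases before the annotated start gave 42336, 47672 and 52512 RPM and folds of 1.13, 1.24 and 0.908. Adding instead the wider set of reads outside the rule, given in the Results, would put OVER below CON. Taking sequences whose sole term is 28S changed no value.

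The share of 28S reads of 15 to 20 nt in CON, OVER and RES was 18.5%, 60.1% and 23.5% with genome-matching sequences, 11.7%, 54.5% and 18.1% with sequences of at least 10 reads, and 17.2%, 57.1% and 24.6% without the 10 most abundant sequences. The sequences holding 50% of the reads numbered 183, 154 and 63 for reads of 21 to 42 nt, where OVER fell below CON, and 173 in CON and 71 in RES with genome-matching sequences.

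Of the counts at least 2-fold apart, a minimum of 20 reads gave 1695 higher and 1082 lower for OVER over CON, 1106 and 517 for RES over CON, and 1504 and 1293 for OVER over RES. With 21 to 42 nt only, the higher counts were 101, 148 and 81 and the lower counts 162, 38 and 260, so OVER against CON turned from more higher to more lower. Genome-matching sequences left 127 lower in OVER than in CON and 23 lower in RES than in CON. Scaling to the 28S reads gave 139 higher and 138 lower in RES than in CON, so the excess of higher sequences ended, and the lower count was 80 with edgeR TMM and 82 with DESeq2 size factors. With these 2 scalings OVER against RES turned to more higher than lower, 354 against 258 and 374 against 241, and scaled to the 28S reads it was 308 against 304.

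The 10 leading families summed to 12737, 9528 and 21186 RPM when joined by 18 nt, to 12798, 10300 and 21723 RPM for 21 to 42 nt, and to 43.5%, 35.3% and 53.8% of the 28S reads. No leading family or named sequence that was 2-fold apart as reported reversed under an alternative. Joined by 18 nt, sequences below 18 nt can join no other. Families 7 and 10, led by sequences of 16 nt, were then each that 1 sequence, so these values are not those of a regrouped family. The leading sequence of family 7 had a log2 ratio of OVER over CON of 2.91, beside 0.22 for the family. For OVER over RES it was 1.36, beside -0.42. Family 1 in OVER against RES lost its 2-fold difference with 21 to 42 nt (log2 ratio -0.94) and when scaled to the 28S reads (-0.91). The cause of the changes in family 1 was not tested.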
